A study of Mus musculus with 6 samples.

Results

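The cytosolic ribosomal protein genes are described here in splenic Tregs that had or lacked Zfp335, a zinc finger transcription factor. They were taken from the count table by name, as the symbols that begin with Rpl or Rps and a number together with Rpsa, Rplp0, Rplp1 and Rplp2. Ribosomal S6 kinases, Rps27l, Rps19bp1 and pseudogenes were left out. The rule gave 84 genes of 32285 rows. By symbol alone, 32 were assigned to the small (40S) subunit and 52 to the large (60S) subunit.

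Bulk RNA-Seq had been done on CD4+CD25+ Tregs from the spleens of C57BL/6 mice, with 3 WT and 3 KO libraries. Per the study's methods, WT mice carried ERCre and KO mice carried ERCre with homozygous floxed Zfp335 (Zfp335 fl/fl), and both received 3 injections of tamoxifen at 10 mg/mL from the age of 6 weeks and were sacrificed on day 7. In the labels the controls are littermates of the wild type, and no drug is named. ERCre is a Cre recombinase fused to a modified estrogen receptor domain that becomes active once tamoxifen is given. The promoter that drives it, and whether RNA of several animals was pooled, are not given in the sources used here, and p-values therefore measure the spread between these samples.

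A ribosome is built from ribosomal RNA and about one copy of each ribosomal protein, and the proteins are made in step with one another. Most of their mRNAs begin with a C followed by a run of pyrimidines, the 5′ terminal oligopyrimidine (TOP) motif, through which mTORC1 and its target LARP1 control how much of each mRNA is translated. Activated T cells raise ribosome production as they grow, and Rpl22 is required for the development of αβ T cells. When assembly is disturbed, Rpl5 and Rpl11 bind Mdm2 together with 5S ribosomal RNA, and p53 accumulates.

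Total counts ran from 133283969 to 209041812 per library, so counting error was small for nearly all of these genes. Zfp335 fell from 120.1 ± 4.67 to 14.8 ± 0.451 CPM (mean ± SD, n = 3 per group), where CPM are counts scaled to the TMM-adjusted total of each library. The Treg markers Cd4, Cd3e, Foxp3, Il2ra, Ctla4, Ikzf2 and Tnfrsf18 summed to 3575 to 3622 CPM in WT and 3669 to 3724 CPM in KO, with 2 of 7 higher and 2 of 7 lower. By group means, Ctla4 rose from 410 to 645 CPM and Tnfrsf18 from 222 to 240 CPM. Foxp3 fell from 1136 to 1052 CPM and Il2ra from 480 to 433 CPM. The higher sum in KO therefore does not show that these markers rose together. Markers of other cells were lower in KO, with sums of 45.4 to 49.5 CPM in WT and 21.1 to 23.0 CPM in KO for 5 B cell genes (all 5 lower), 44.5 to 52.8 and 22.1 to 23.7 CPM for 7 myeloid genes (5 lower) and 36.5 to 43.4 and 1.81 to 2.31 CPM for 5 red cell genes (all 5 lower). The 4 CD8 T cell and NK cell genes summed to 15.0 to 15.9 CPM in WT and 14.4 to 15.8 CPM in KO, with none called. Xist, the RNA that coats the silenced X chromosome of females, was at 0.187 to 0.424 CPM in WT and at 123.9 to 144.7 CPM in KO, whereas the Y-linked Ddx3y was at 98.3 to 105.2 CPM in WT and 76.6 to 80.0 CPM in KO. The Y-linked Uty and Kdm5d were lower in KO as well. Uty was at 17.2 to 17.6 CPM in WT and 11.5 to 12.2 CPM in KO. Kdm5d was at 42.3 to 44.7 CPM in WT and 34.9 to 36.5 CPM in KO. Eif2s3y, also Y-linked, was at 44.1 to 49.7 CPM in WT and 45.3 to 48.1 CPM in KO and was not called. Xist and these Y-linked genes were picked after their values were seen. Both Xist and Y-linked RNA were thus counted in each KO library. The labels give no sex, and the effects of Zfp335 deletion and of this difference cannot be told apart. The part of these differences in the results below was not tested, and in bulk samples fewer cells of a type and less RNA per cell cannot be told apart.

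The start of transcription is where a TOP motif would lie, so the 30 bases from 10 before to 20 after the RefSeq start (GRCm38.p6) are shown 5′ to 3′ for 8 genes. The first 3 are the called genes of the largest increase that have an entry, Rps19 and Rps28 are called genes with no match, and the last 3 were not called. Capitals mark the first C followed by at least 4 further C or T bases.
Rpl28 (chr7:4792955-4792984, + strand): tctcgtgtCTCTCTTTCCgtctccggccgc
Rps23 (chr13:90923112-90923141, + strand): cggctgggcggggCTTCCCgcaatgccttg
Rpl27a (chr7:109519185-109519214, + strand): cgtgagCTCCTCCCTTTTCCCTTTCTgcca
Rps19 (chr7:24884582-24884611, + strand): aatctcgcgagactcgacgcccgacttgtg
Rps28 (chr17:33824543-33824572, − strand): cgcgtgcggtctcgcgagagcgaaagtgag
Rps10 (chr17:27635225-27635254, − strand): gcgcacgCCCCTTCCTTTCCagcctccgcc
Rpl4 (chr9:64173377-64173406, + strand): tttcctgtgggagcagccgggtagagagga
Rps4x (chrX:102189372-102189401, − strand): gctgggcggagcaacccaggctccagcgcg

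The run was 20 bases long in Rpl27a, 10 in Rpl28 and 6 in Rps23, and Rps10, whose mRNA level did not pass the test, had a run of 13. Each window rests on the RefSeq start, and other annotation can differ. The GENCODE gene of Rps19, for example, begins at chr7:24884371, before its window. A window without a run therefore does not show that the mRNA lacks a TOP motif. Of the 84 genes, 64 had a RefSeq promoter entry, and 40 of these (62.5%) held such a run in this window, beside 35.9% of the 27025 promoters of all genes. The run was found in 12 of 18 called genes and in 28 of 46 genes that were not called. It was also found in 47.8% of 69 mitochondrial ribosomal protein genes.

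Other motifs were searched on both strands from 250 bases before to 50 bases after the start, except that TATAAA was searched only before it. The motif CCGGAAG, the core bound by ETS factors, was in 24 of the 64 promoters (37.5%) and in 9.12% of all promoters. GGGCGG, the core bound by SP factors, was in 38 (59.4%) and in 35.9% of all, and AAGATGGC, the core bound by YY1, was in 5 (7.81%) and in 2.88% of all. The TATAAA box within the 50 bases before the start was in 1 of 64, beside 3.78% of all. CCGGAAG was in 6 of 18 called genes and in 18 of 46 that were not called. In the 69 mitochondrial ribosomal protein promoters the shares were 36.2% for CCGGAAG, 49.3% for GGGCGG and 17.4% for AAGATGGC. None of these motifs contains another, and a match is a description of the letters in the window.

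Of the 84 genes, 82 had enough counts to be tested. In KO Tregs 22 of them were higher (26.8%) and 1, Rpl7, was lower (1.22%), at an adjusted p under 0.05 from edgeR's quasi-likelihood test over 17307 genes. Across all genes tested, 12% were higher and 12.1% were lower. Most ribosomal protein mRNAs are abundant, however, and among the 765 abundant genes, those whose average log2 CPM was 8 or more, the shares were 25.8% higher and 13.6% lower. The share that rose was near that of the abundant genes and the share that fell was below it. The 2 sets are not alike, since only 700 of the 765 lie outside the ribosomal protein genes. Some of the 82, the called Rps29, Rps23 and Rpl27a among them, also fall below the cutoff. The changes were small, with log2 fold changes from −0.22 to 0.39 and a median of 0.056, beside −0.0042 over all genes tested and 0.025 over the abundant genes. Changes of abundant genes were small too. Their 5th to 95th percentiles were −0.21 to 0.36, beside −0.91 to 0.68 over all genes tested. At the cutoffs of 1.5-fold, p under 0.05 and adjusted p under 0.1, which 6.95% of all genes passed in either direction, 0 of 82 passed in edgeR, and 0 passed in DESeq2 or limma-voom. Without adjustment for multiple tests 33 were higher and 1 was lower. All 3 KO libraries lay above all 3 WT libraries for 30 of the 82 genes, beside 19.3% of all genes and 255 of the 765 abundant genes. All 3 lay below for 1, beside 19.1% of all genes and 153 of the abundant genes.

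The count of calls depended on single libraries, as did that over all genes tested. Without KO replicate 1 there were 12 higher and 1 lower, beside 8.11% higher and 8.06% lower of all genes. Without KO replicate 2 there were 13 higher and 1 lower, beside 7.74% and 7.89%. Without WT replicate 1 there were 27 higher and 10 lower, beside 14.1% and 14.1%. The lower genes in that last fit were Rpl5, Rpl7, Rpl10a, Rpl19, Rpl21, Rpl23a, Rpl26, Rpl41, Rps15 and Rps24. Of the 23 genes called, 12 were called in every one of the 18 other settings tried, namely Rpl7 and, among the genes that rose, Rpl3, Rpl22l1, Rpl27a, Rpl30, Rpl34, Rps13, Rps19, Rps23, Rps27rt, Rps28 and Rps29.

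**Figure D1:**
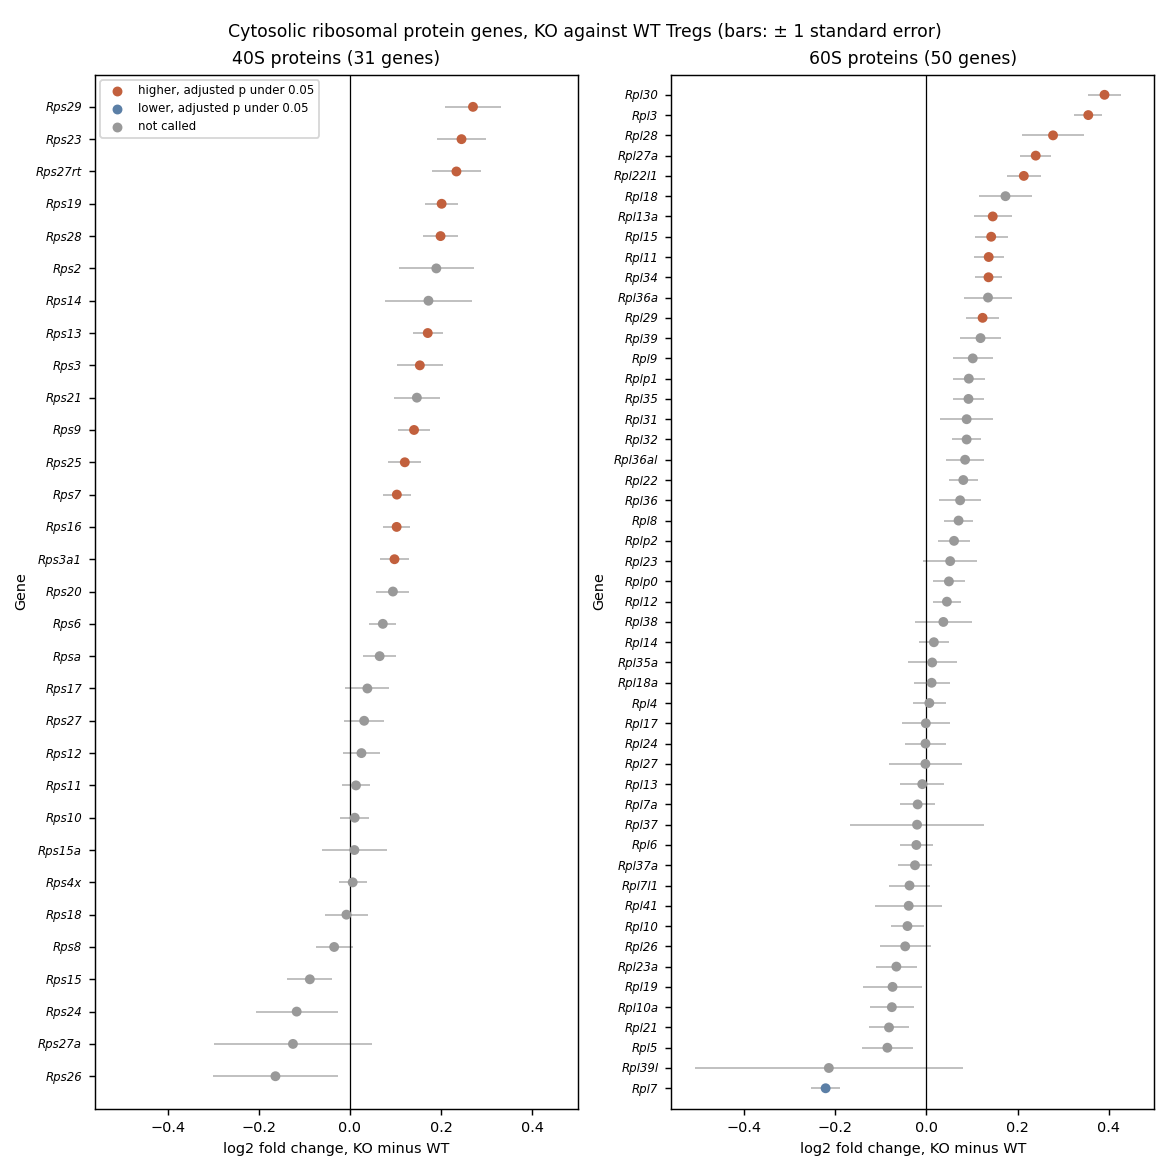
Log2 fold change of KO over WT on the horizontal axis for 31 tested genes of the 40S subunit (left) and 50 of the 60S subunit (right), ordered by value, with bars of 1 standard error. Red points are the 22 genes called higher, the blue point is Rpl7, the only gene called lower, and the grey points, which include Rps2 and Rps26 with their wide bars, were not called.

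The 60S subunit carries the peptidyl transferase center and the exit tunnel. Of its 50 tested genes, 10 rose (20%) and 1 fell (2%), with a median log2 fold change of 0.047. Across all genes tested 12% rose and 12.1% fell, and of the abundant genes 25.8% rose and 13.6% fell. Rpl30, a 60S protein, rose the most. Its level was 399, 417 and 437 CPM in the WT libraries and 545, 550.1 and 546 CPM in the KO libraries. Thus each KO library lay more than 100 CPM above each WT library, and the log2 fold change was 0.39 (SE 0.036, adjusted p = 4.33e-06, edgeR). The gene lies at chr15:34440505-34443640 on the − strand (GRCm38, GENCODE M21).

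Rpl3, a core protein of the peptidyl transferase center, was at 792, 808 and 800.2 CPM in WT and at 1042, 1019.5 and 1008 CPM in KO. The WT values lay close together and the groups were far apart (log2 fold change 0.36, SE 0.030, adjusted p = 2.13e-06, edgeR). The gene lies at chr15:80077791-80091868 on the − strand, the same chromosome as Rpl30.

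Rpl28, a 60S protein that baker's yeast lacks, varied more among WT libraries, with 215, 202 and 174 CPM against 234, 249.6 and 234 CPM in KO. The highest WT library, replicate 1, stood just under the KO libraries (log2 fold change 0.28, SE 0.069, adjusted p = 0.018, edgeR), and 1 of the 18 other settings lost the call. Rpl27a, whose protein lies in the 60S core, had closely spaced values of 81.5, 83.7 and 82.4 CPM in WT and 97.9, 98.9 and 95.8 CPM in KO (log2 fold change 0.24, SE 0.034, adjusted p = 0.00021, edgeR).

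Rpl7, a 60S protein, went the other way. It was at 1087, 1104 and 1150 CPM in WT and at 965, 941 and 961 CPM in KO. The groups did not overlap, with KO lower throughout (log2 fold change −0.22, SE 0.032, adjusted p = 0.00027, edgeR), and its log2 fold change stayed between −0.25 and −0.20 in all 18 other settings. The gene lies at chr1:16101295-16104662 on the − strand.

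The remaining 60S genes called higher were Rpl11, Rpl13a, Rpl15, Rpl29 and Rpl34, with log2 fold changes of 0.12 to 0.15, and Rpl22l1, which is described with its paralog. Rpl13a, which can also act in a complex that silences mRNAs after interferon-γ exposure, was at 2306, 2259 and 2044 CPM in WT and at 2417, 2458 and 2436 CPM in KO. Its lowest WT value was that of replicate 3, the shallowest library, and the groups did not overlap.

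**Figure D2:**
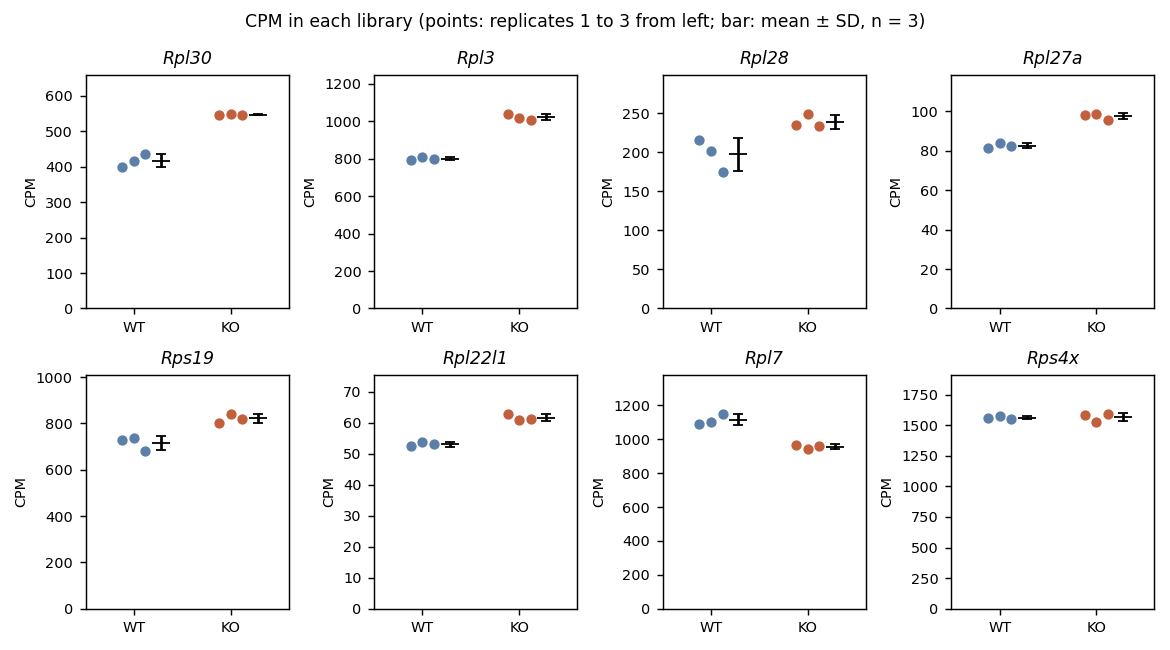
CPM in each library for 8 ribosomal protein genes, with the vertical axis of each panel from 0, WT in blue, KO in red and the mean ± SD (n = 3) as a black bar beside each group. The KO points lie above the WT points for Rpl30, Rpl3, Rpl28, Rpl27a, Rps19 and Rpl22l1 and below them for Rpl7. For Rps4x they lie on both sides of the WT points.

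The 40S subunit binds the mRNA and holds the decoding center. Of its 32 tested genes, 12 rose and none fell in edgeR at an adjusted p under 0.05, and 15 rose and none fell without adjustment. These 12 were 37.5%, beside 12% of all genes tested and 25.8% of the abundant genes. The median log2 fold change was 0.083. DESeq2 and limma-voom also called none of them lower, whereas edgeR without WT replicate 1 called Rps15 and Rps24 lower.

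Rps29, a zinc-binding protein of the 40S head, had low levels of 16.6, 18.0 and 18.5 CPM in WT and 21.0, 22.8 and 20.1 CPM in KO. The groups did not overlap, and the log2 fold change was 0.27 (SE 0.062, adjusted p = 0.0067, edgeR). Rps23, which lies at the decoding center, was at 25.6, 26.5 and 27.0 CPM in WT and at 30.1, 33.6 and 29.9 CPM in KO. KO replicate 2 was its highest library (log2 fold change 0.24, SE 0.054, adjusted p = 0.0052, edgeR).

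Rps19, the gene most often mutated in Diamond-Blackfan anemia, an inherited failure of red cell production, was at 728, 736 and 679.5 CPM in WT and at 802, 841 and 820.3 CPM in KO. All KO libraries exceeded all WT libraries, with a log2 fold change of 0.20 (SE 0.037, adjusted p = 0.0014, edgeR). Rps28, near the site where the mRNA leaves the subunit, was at 253, 259 and 260.1 CPM in WT and at 304, 303.5 and 279 CPM in KO. Its KO replicate 3 stood closer to WT than the other two did (log2 fold change 0.20, SE 0.038, adjusted p = 0.0020, edgeR).

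Rps13, in the 40S body, rose with a log2 fold change of 0.17 from 224 to 233 CPM in WT to 252 to 264 CPM in KO. Rps3, which lines the mRNA entry channel and can also act with NF-κB, ran from 1932 CPM in WT replicate 1 to 1625 CPM in WT replicate 3, and from 1936 to 2004 CPM in KO. Its WT replicate 1 almost reached the KO values (log2 fold change 0.15, SE 0.051, adjusted p = 0.047, edgeR), and it was called in 6 of 18 other settings. The others called were Rps3a1, Rps7, Rps9, Rps16 and Rps25, with log2 fold changes of 0.098 to 0.14, and Rps27rt. Rps3a1 was called in 8 of 18 other settings.

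Among 13 ribosomal protein genes mutated in Diamond-Blackfan anemia, 5 rose (Rps7, Rps19, Rps29, Rpl11 and Rpl15) and none fell in edgeR, with the same 5 and none at an unadjusted p under 0.05, and the median log2 fold change was 0.013. These 5 were 38.5% of the list, beside 12% of all genes tested and 25.8% of the abundant genes. Rps26 and Rps24 had log2 fold changes of −0.16 and −0.12 with standard errors of 0.14 and 0.090. For Rps26 the WT libraries ran from 428 to 611 CPM and the KO libraries, from 455 to 464 CPM, lay inside that range.

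Rpl5 and Rpl11, the proteins that join 5S ribosomal RNA, did not have the same result. Rpl11 was at 844, 829.8 and 799 CPM in WT and at 919, 912 and 887 CPM in KO, with every KO library higher (log2 fold change 0.14, SE 0.033, adjusted p = 0.0086, edgeR). Rpl5 was at 894, 988 and 1069 CPM in WT and at 935, 893 and 952 CPM in KO. These groups overlapped, and the log2 fold change was −0.086 (SE 0.055, adjusted p = 0.31, edgeR). Whether the changes of Rpl5 and Rpl11 differ was not tested.

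Of the genes for partners of this complex in the p53 checkpoint, 3 of 4 rose and none fell, beside 12% higher and 12.1% lower of all genes tested. Mdm2, the ubiquitin ligase that Rpl5 and Rpl11 bind, was at 103, 99.8 and 97.1 CPM in WT and at 120.1, 120.4 and 120.6 CPM in KO (log2 fold change 0.27, SE 0.035, adjusted p = 9.8e-05, edgeR). Cdkn1a, a p53 target that stops the cell cycle, rose from 7.93 ± 0.425 to 25.6 ± 0.508 CPM (n = 3 per group), a log2 fold change of 1.69. Trp53 itself rose by 0.12 on the log2 scale.

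The stalk proteins Rplp0, Rplp1 and Rplp2, which recruit translation factors to the 60S subunit, were not called in edgeR, and their log2 fold changes were 0.049, 0.093 and 0.061. The libraries of the 2 groups overlapped for each. Rplp1 was at 1252, 1264 and 1295 CPM in WT and at 1395, 1380.1 and 1291 CPM in KO. Its adjusted p was 0.079 (edgeR), with KO replicate 3 inside the WT range. DESeq2 did call it, at a log2 fold change of Rplp1 of 0.094 and an adjusted p of 0.0407, as did the edgeR fits without KO replicate 3 or without WT replicate 3.

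Rpsa, a 40S protein first described as a laminin receptor, was at 3272, 3028 and 3045 CPM in WT and at 3316, 3237 and 3223 CPM in KO, with overlapping groups and a log2 fold change of 0.065 (SE 0.036). Rps27a, which is made as a fusion to ubiquitin, was at 181, 238 and 167 CPM in WT and at 168, 202 and 167 CPM in KO. Replicate 2 was the highest in both groups, and the standard error of 0.17 exceeded the log2 fold change of −0.13.

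Fau and Rack1 also code for ribosomal proteins but fall outside the naming rule. Neither was called in edgeR, DESeq2 or limma-voom, although Fau had an unadjusted p under 0.05 in edgeR and was called without WT replicate 1. Fau, a fusion of a ubiquitin-like protein with a 40S protein, had a log2 fold change of 0.076, and its KO libraries of 601 to 617 CPM lay above the WT libraries of 559 to 588 CPM. Rack1, a 40S scaffold protein, had a log2 fold change of 0.00026 at about 2103 CPM in both groups.

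Rpl10, Rpl36a, Rpl39 and Rps4x are X-linked. Xist coats a silenced X chromosome, so the levels of these genes cannot tell what part the Xist difference played, which was not tested. In the edgeR fit of all 6 libraries 0 of the 4 were called, with Rpl36a and Rpl39 at an unadjusted p under 0.05. Rpl39 was called higher in 5 of the 18 other settings, DESeq2 and the fit with the GC trend removed among them, and Rpl36a in 3. Rps4x was at 1557, 1576 and 1549 CPM in WT and at 1580, 1529 and 1593 CPM in KO, a log2 fold change of 0.0059 (SE 0.031). Rpl10 had a log2 fold change of −0.042 (SE 0.037), Rpl36a of 0.14 (SE 0.053) and Rpl39 of 0.12 (SE 0.045). For Rpl39 all KO libraries, from 261 to 281 CPM, lay above the WT libraries, from 231 to 259 CPM.

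Several ribosomal proteins have a second gene. The list of such paralogs held 9, of which 7 were in the table and 5 were tested. Rpl10l, a testis gene, had 0 counts in all 6 libraries, and Rpl3l, a muscle gene, had 0 counts in 5 libraries and 3 in the sixth. Rpl39l, also known from testis, was at 0.379 to 0.672 CPM in WT and 0.342 to 0.550 CPM in KO. Rpl7l1 and Rpl36al were not called, with log2 fold changes of −0.037 (SE 0.044) and 0.085 (SE 0.041).

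Rpl22l1, the paralog that can take the place of Rpl22, rose from 52.4, 53.9 and 53.1 CPM in WT to 62.9, 60.8 and 61.2 CPM in KO (log2 fold change 0.21, SE 0.037, adjusted p = 0.0010, edgeR). Rpl22 was at 233, 243 and 238 CPM in WT and at 252, 253 and 251 CPM in KO, so its groups did not overlap either. Its log2 fold change of 0.081 (SE 0.031) did not pass the threshold (adjusted p = 0.081, edgeR), but the log2 fold change of Rpl22 passed in DESeq2 (adjusted p = 0.0348) and with the GC trend removed (adjusted p = 0.0138, edgeR). Whether the changes of Rpl22l1 and Rpl22 differ was tested only through their ratio. The log2 ratio of Rpl22l1 to Rpl22 was −2.16, −2.17 and −2.17 in WT and −2.00, −2.06 and −2.04 in KO. All KO ratios were higher, by 0.13 on average, and the two-sided exact permutation p was 0.1, the smallest that 3 against 3 libraries can give.

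Rps27rt, an intronless copy of Rps27 that arose by retrotransposition, was at 215, 249 and 236 CPM in WT and at 263, 292 and 268 CPM in KO (log2 fold change 0.23, SE 0.053, adjusted p = 0.0075, edgeR). Rps27 was at 219, 241 and 245 CPM in WT and at 231, 243 and 246 CPM in KO, with overlapping groups and a log2 fold change of 0.031. The coding sequences of both are 252 bases long and 0 bases differ, so reads in them cannot be assigned to one gene or the other. Their sum was 434, 490.3 and 481 CPM in WT and 494, 535 and 514 CPM in KO, which puts every KO library above every WT library, by a log2 difference of 0.14 between means. The rise of Rps27rt alone is therefore uncertain. Rpl36a and Rpl36al, by contrast, differ at 39 of 318 coding bases (87.7% identity), and their sum was 107 to 111 CPM in WT and 114 to 120 CPM in KO.

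Shared sequence was common among these genes, since most have many processed copies in the genome. Across the 84 genes the median share of 50-base stretches of the coding sequence that also occur in another gene was 91.4%, and 31 genes shared all of theirs. How reads with several matches were counted is not stated, and none of the 18 other settings changed it. The 12 genes called in every setting shared from 72.2% (Rpl34) to 100% (Rpl27a and others) of their stretches. Of 12 tested genes that shared at most 50%, 2 were called higher (Rps3 and Rps9), which is 16.7%. Of 70 that shared more, 20 were called higher (28.6%) and 1 lower (1.43%). Across all genes tested 12% were higher and 12.1% lower, and of the abundant genes 25.8% and 13.6%. The median log2 fold changes of the genes sharing at most 50% and of those sharing more were 0.042 and 0.056.

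Levels per kilobase of coding sequence spanned a wide range. Counts per gene were divided by coding length alone, so reads outside the coding sequence would raise these values, most for short coding sequences such as that of Rpl41. The order is therefore not a ranking of mRNA levels. The highest mean in WT was that of Rpl41, at 9527 CPM per kilobase of a coding sequence of 75 bases, followed by Rplp1 at 3716, Rpl13a at 3617, Rpsa at 3520.0 and Rps14 at 3193. Of these 5, Rpl13a was called in edgeR, and in 13 of the 18 other settings, and the other 4 were not, although DESeq2 called Rplp1. Rpl41 was at 630.0, 729 and 784 CPM in WT and at 689, 724 and 673 CPM in KO, and its groups overlapped. Among the broadly used proteins, Rps23 at 61.5, Rps29 at 105 and Rpl27a at 186 CPM per kilobase had some of the lowest values in WT. All 50-base stretches of these 3 occur in other genes, and all 3 were called higher, as was Rpl15 at 338, which also shares all of its stretches. Rpl36a at 114, Rpl36al at 229 and Rps27a at 417 CPM per kilobase share all of theirs too and were not called.

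The genes lie on every mouse chromosome except 19 and Y. A grouping made after the values were seen was that of chromosome 7, where 8 of 14 rose, namely Rpl13a, Rpl27a, Rpl28, Rps3, Rps9, Rps13, Rps16 and Rps19. On the other chromosomes 14 of 68 rose and 1 fell. Among all abundant genes of chromosome 7, 21 of 71 rose and 6 fell, beside 25.8% and 13.6% of abundant genes in all. Small nucleolar RNA genes, which guide the modification of ribosomal RNA and are often hosted in introns, lay inside 30 of the 84 genes. They lay inside 8 of the 23 called genes and 22 of the 59 that were not.

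WT libraries differed more among themselves than KO libraries did. The median SD of log2 CPM over the 82 genes was 0.073 in WT and 0.032 in KO, and it was larger in WT for 65 of 82 (79.3%). The same held for 622 of 765 abundant genes (81.3%), with medians of 0.051 and 0.025. WT replicate 1 was the lowest WT library for 54 of the 82 ribosomal protein genes, and WT replicate 3 was the highest for 51. The median deviation from the WT mean was −0.045, 0.0053 and 0.047 in the WT libraries and 0.070, 0.057 and 0.059 in the KO libraries, on the log2 scale. WT replicate 3 thus stood nearest to KO in this median. Not all genes followed it, and Rps2, Rps3, Rps14, Rpl18 and Rpl28 had the opposite order of WT libraries, with replicate 1 the highest.

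**Figure D3:**
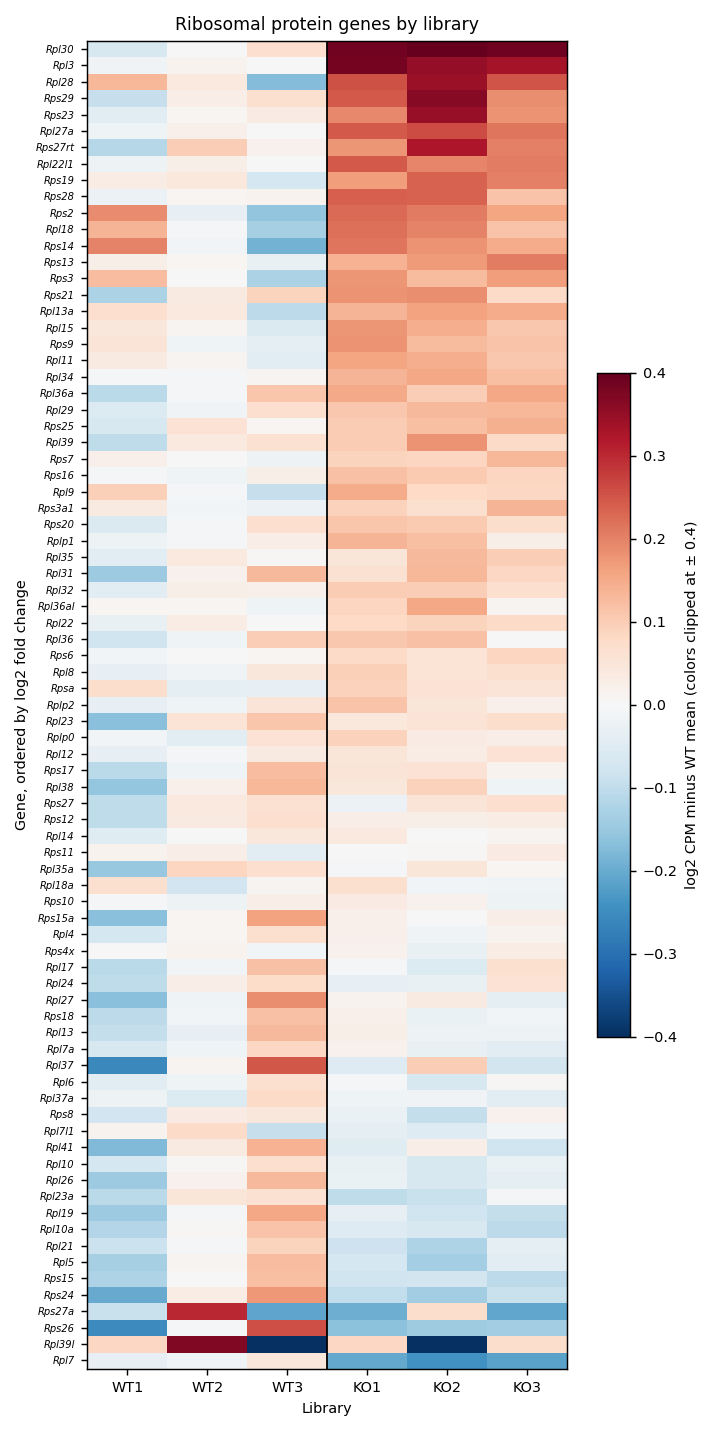
Log2 CPM minus the WT mean for 81 tested ribosomal protein genes (rows, ordered by log2 fold change) in the 6 libraries (columns), with red above and blue below the WT mean and colors clipped at 0.4. The top rows are red in all 3 KO libraries and the bottom row, Rpl7, is blue in all 3, whereas in most middle rows WT replicate 1 and WT replicate 3 lie on opposite sides.

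Summed over the 84 genes, ribosomal protein counts were 6.51, 6.61 and 6.70% of all counts in WT and 6.77, 6.72 and 6.68% in KO. KO replicate 3 lay below WT replicate 3, so the groups overlapped, and the means were 6.61 ± 0.097% and 6.72 ± 0.045% (SD, n = 3 per group). The difference of 0.12 percentage points was close to the SD among WT libraries. Intervals from counting would be far narrower than this spread.

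The other genes of the pathway were counted in lists, beside shares of 12% higher and 12.1% lower over all genes tested. Of 18 translation factors and other mRNAs with TOP motifs, 1 rose and none fell in edgeR at an adjusted p under 0.05, and 2 rose and none fell without adjustment. The one called was Btf3, a subunit of the complex that binds emerging proteins, with a log2 fold change of 0.095 (adjusted p = 0.0499, edgeR), and other settings called from 0 to 5 genes of the list. The median of the list was 0.032.

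Of 63 genes for ribosome assembly, 15 rose (23.8%) and 2 fell (3.17%), with a median of 0.040. Gnl3, or nucleostemin, a nucleolar GTPase, rose the most, from 82.5, 85.6 and 90.4 CPM in WT to 108, 111.9 and 115.5 CPM in KO (log2 fold change 0.38, SE 0.042). Riok1, a kinase of 40S maturation, and Nop56, a core protein of box C/D small nucleolar particles, rose by 0.29 and 0.28. Bysl, another factor of 40S maturation, and Pes1, a factor of 60S maturation, fell by 0.28 and 0.21. Without WT replicate 1 the list had 19 higher and 9 lower, beside 14.1% higher and 14.1% lower of all genes tested.

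Among 7 chaperones of newly made ribosomal proteins, 2 rose and 1 fell. Tsr2, the chaperone of Rps26, rose by 0.49 on the log2 scale, from 17.5 ± 0.590 to 24.7 ± 1.18 CPM, while Rps26 itself was not called. Aamp, whose yeast homolog is the chaperone of Rpl10, rose by 0.17. Pdcd2, the chaperone of Rps2, fell by 0.34, from 15.8 ± 1.75 to 12.5 ± 1.57 CPM. Rps2 was at 2439, 2091 and 1918 CPM in WT and at 2500.3, 2468 and 2383 CPM in KO, with overlapping groups (log2 fold change 0.19, SE 0.082, adjusted p = 0.15, edgeR).

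Of 20 genes for mTORC1, LARP1 and MYC control, 3 rose and 2 fell. Sesn2, an inhibitor of mTORC1 that senses leucine and is a p53 target, rose from 20.5 ± 2.34 to 34.9 ± 1.51 CPM (log2 fold change 0.78). Larp1, the protein that binds TOP motifs, rose from 321.8 ± 8.68 to 387 ± 2.41 CPM (log2 fold change 0.27), and Tsc1, a brake on mTORC1, rose by 0.15. Ddit4, another inhibitor of mTORC1, fell by 0.37, and Myc, which drives ribosome production, fell by 0.18.

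Mitochondrial ribosomal proteins, which translate the mRNAs of mitochondrial DNA, gave a different count. Of 78 genes, 4 rose (5.13%) and 8 fell (10.3%), with a median of −0.038. Of all genes tested, 12% were higher and 12.1% lower. The largest increases were those of Mrps7 (log2 fold change 0.79), Mrpl9 (0.46) and Mrps30 (0.23), and the largest decreases those of Mrps5 (−0.39), Mrpl51 (−0.35) and Mrps25 (−0.28). Without WT replicate 1 the count was 6 higher and 14 lower, beside 14.1% and 14.1% of all genes tested. Without KO replicate 1 it was 3 and 3, beside 8.11% and 8.06%. Without WT replicate 2 it was 3 and 4, beside 7.55% and 7.88%. The difference between the cytosolic and mitochondrial lists was not tested.

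**Figure D4:**
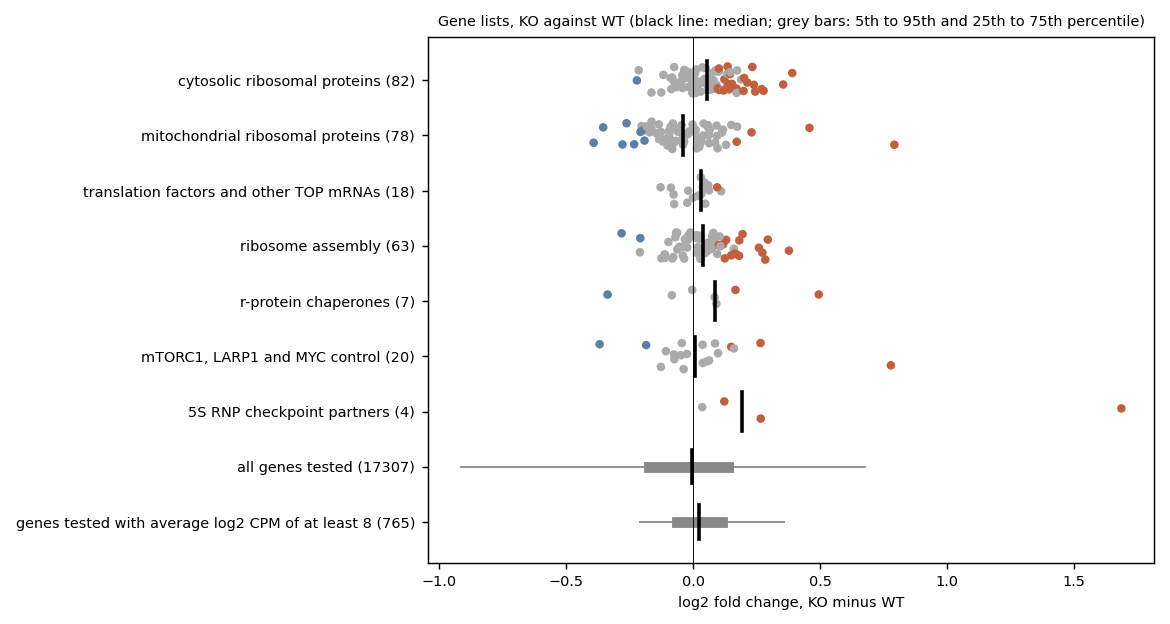
Log2 fold change of KO over WT for each gene of 7 lists, with genes called higher in red, called lower in blue and not called in grey, the median as a black line and the number of genes in brackets, above the 5th to 95th and 25th to 75th percentiles of all genes and of abundant genes as grey bars. Cytosolic ribosomal proteins lie between −0.22 and 0.39 with a median of 0.056, and mitochondrial ones between −0.39 and 0.79 with a median of −0.038.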

How the data were processed

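The count table was deposited by the authors as raw counts per gene. The submitters' processing notes name HISAT2, DESeq2 and mm10, TruSeq libraries were made from total RNA, and the tool that made these counts, with its treatment of strand and of reads with several matches, is not given in the sources used here (the study's methods describe HISAT2 and StringTie for its Foxp3Cre libraries). All 6 libraries were used, grouped by their titles. Genes passing filterByExpr were tested with edgeR 4.0.16 (TMM, robust quasi-likelihood F-test, Benjamini-Hochberg over 17307 genes, adjusted p under 0.05), and the fit was tested on simulated data. CPM used TMM-scaled libraries, and standard errors are of log2 fold changes. The gene rule named the called genes with the largest change (at most 12 in each direction), the 5 with the highest level per coding length, fixed functional groups and, in each related list, the 3 called with the largest change in each direction. Genes named beyond it (Rps2, Rps14, Rps26 and others used to describe spread, and Xist, Ddx3y, Uty, Kdm5d and Eif2s3y) were chosen after their values were seen. Members and lists were chosen with earlier results of these data known. Coding sequences and coordinates came from GENCODE M21 and start windows from RefSeq. Replicate numbers did not pair the libraries. Alternatives were other scalings, filters and tests (DESeq2, limma-voom, legacy edgeR), the replicate number as a block, removal of a GC trend and leaving out each library. One gene that could be tested is counted but not reported here by itself and is not drawn gene by gene.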

Additional observations from a re-analysis of the deposited data

How the results depend on the processing

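The calls of ribosomal protein genes were recomputed under 18 alternatives. The number higher was 22 with RLE factors, with TMM computed without ribosomal protein genes and with limma-voom (3.58.1), 31 with DESeq2 (1.42.0), 15 with library size only and 17 with upper-quartile factors, each with 1 lower. Scaling by library size alone shifted the calls over all genes from 2082 higher and 2088 lower to 1622 and 2575. Leaving out 1 library gave 13 to 37 calls in all, 12 to 30 higher and 1 to 10 lower. Over all genes tested the shares in these fits ran from 7.55% to 14.1% higher and from 7.88% to 14.1% lower. No fit passed the 1.5-fold cutoffs. Replicate numbers did not pair the libraries (correlations of deviations of 0.0284, 0.0082 and 0.0326, each under 0.1). The fit with the replicate number as a block gave 27 higher and 1 lower, and 31 and 1 with the trend on GC content removed as well. Rpl7 was lower in all 18. In the list of translation factors and TOP mRNAs the count, 1, was 2 with DESeq2 and with no filter, 4 with the GC trend removed, 3 with the block and the GC trend removed together, and 0 with a filter at an average log2 CPM of 1, legacy edgeR, library size only and upper-quartile factors, and 0 to 5 leaving out 1 library. Leaving out 1 library gave up to 28 calls for ribosome assembly and 6 to 20 for mitochondrial ribosomal proteins. The cause of these shifts was not tested.

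Sign changes touched only genes that were not called in the edgeR fit of all 6 libraries. One of them, Rpl41, was called lower without WT replicate 1. The log2 fold change of Rack1 was −0.00992 with the GC trend removed, −0.00747 with the filter at 1, −0.031 with library size only, −2.19e-05 with limma-voom, −0.010 with the block and GC trend together, −0.000178 with the block and −0.014 with upper-quartile factors. The log2 fold change of Rps4x was −0.00182 with the filter at 1, −0.025 with library size only and −0.00844 with upper-quartile factors. Leaving out 1 library gave a log2 fold change of Rack1 from −0.033 to 0.024, a log2 fold change of Rps4x from −0.00508 to 0.024, a log2 fold change of Rps27a from −0.22 to 0.043, a log2 fold change of Rpl7l1 from −0.079 to 0.00373 and a log2 fold change of Rpl41 from −0.12 to 0.034. Of 1007 values for 56 named genes, 933 kept their direction and side of the threshold, 38 lost the call and 20 gained one.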
